A study of Mus musculus with 6 samples.

Results

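Genes of neural progenitors, of neuroblasts (young neurons on the move) and of the cell cycle were examined in RNA from the pre-limbic cortex (PLc), which belongs to the medial prefrontal cortex. The list held 31 named genes, taken from the deposited table by gene symbol, and 30 of them were found among the 37620 genes listed. Of these, 28 were tested, with 16127 genes tested in all. The remaining gene, Ccnb1, is described apart because its identifier stood in the table under another symbol. The mice were C57Bl/6 animals of 9 weeks. The study's methods describe its mice as male. The ketamine group (mice 3, 5 and 9) was injected intraperitoneally with 30 mg/kg ketamine, an antagonist of the NMDA receptor, once a day for 5 days. The saline group (mice 1, 6 and 10) received the vehicle on the same schedule. All brains were taken 2 days after the last injection, and each of the 6 mice gave 1 library.

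Expression is given in normalized counts, that is, the reads of a gene after the authors' scaling of each library by its size factor. Groups were compared by limma on the scale log2(normalized count + 1). Genes whose mean over the mice was under 10 normalized counts were not tested. All p-values are two-sided, the adjusted ones follow Benjamini and Hochberg with all 16127 genes included, and 0.05 was the threshold. The added count pulls the log2 values of scarce genes together, and limma compares means of log2 values, whereas DESeq2 and edgeR compare mean counts.

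In the adult mouse forebrain, dividing stem and progenitor cells line the lateral ventricles. Their daughters, the neuroblasts, migrate forward in a stream beneath the frontal cortex to the olfactory bulb, where they become interneurons. Mature cortical neurons no longer divide, and the cycling cells of adult cortex are mostly oligodendrocyte precursors. Several genes known from embryonic progenitors stay active in adult astrocytes, among them Sox2, Hes5, Notch1 and Vim, and the MCM and PCNA proteins serve DNA replication and repair in many cells.

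The libraries differed in their levels of markers of other regions and cells. Recovered reads lay between 26273436 and 32643726 per library. Markers of cortical excitatory neurons were abundant in each library, with a summed level over 10 genes between 39433 and 74440 normalized counts, but their level differed between mice. Their mean log2 level, with the saline mean at 0, was 0.17, 0.08 and -0.25 under saline (mice 1, 6 and 10) and -0.39, -0.01 and -0.60 under ketamine (mice 3, 5 and 9). Of the 10 genes, 7 were lower in ketamine and 3 higher (median log2 fold change -0.44). DESeq2 called 1, Neurod6, which was lower in every ketamine mouse (-1.28, adjusted p = 0.00459 by DESeq2 and 0.368 by limma). Bcl11b was higher in every ketamine mouse, at 2544 to 4049 normalized counts against 1682 to 2359 in saline mice. Its log2 fold change was 0.78 (adjusted p = 0.569 by limma). Foxp2 was also higher (0.92), with overlapping groups. Among the ketamine mice, both genes were highest in mouse 3 and lowest in mouse 9, as was the mean of the striatal markers given next. Markers of striatal projection neurons summed over 10 genes to 58175 and 29046 normalized counts in ketamine mice 3 and 5, against 6456 to 8366 in the other four. On that log2 scale they stood at 3.59 and 2.51 in those mice and lay between -0.05 and 0.05 in the others. Single genes of ketamine mouse 9 differed from saline both ways. Penk and Tac1 had 3377 and 644 normalized counts there, against at most 1359 and 377 in saline mice. Drd1 and Pde10a had 116 and 764, against at least 184 and 1696. In 4 of the 10 genes every ketamine mouse was above every saline mouse (5.69% of all genes tested). Markers of olfactory bulb projection neurons (8 genes) stood on the same scale at -0.62, -0.38 and 1.01 under saline (mice 1, 6 and 10) and at 2.64, 1.57 and 3.76 under ketamine (mice 3, 5 and 9). In 4 of the 8 genes every ketamine mouse was above every saline mouse. Among these, Tbx21 and Eomes had at most 3.86 and 14.5 normalized counts in saline mice and reached 362 and 1129 in ketamine mouse 9. The list was not uniform, since Uncx had 29.7 normalized counts in saline mouse 10 and 2.72 in ketamine mouse 9, Lhx5 had 30.8 in saline mouse 10 and 2.82 in ketamine mouse 5, and Tbr1, also a gene of cortical neurons, had a log2 fold change of -0.47. Saline mouse 10 stood apart from the other saline mice by its ependymal markers, whose sum over 10 genes was 960 normalized counts there, against 252 and 222.

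Neuroblast genes were on the higher side in ketamine. All 7 had a log2 fold change above 0, with a median of 0.94, beside a median of -0.01 over all genes tested, of which 47.0% were above 0. In 5 of the 7 (Dcx, Sox4, Cd24a, Igfbpl1 and Dpysl3), every ketamine mouse was above every saline mouse, an order found for 5.69% of all genes tested. limma called none of them at the adjusted threshold, nor any gene of the table (0.0%), while 5 had an unadjusted p under 0.05, as did 5.81% of all genes (3.44% higher in ketamine). In bulk tissue, more cells of a type and more RNA per cell cannot be told apart.

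**Figure D1:**
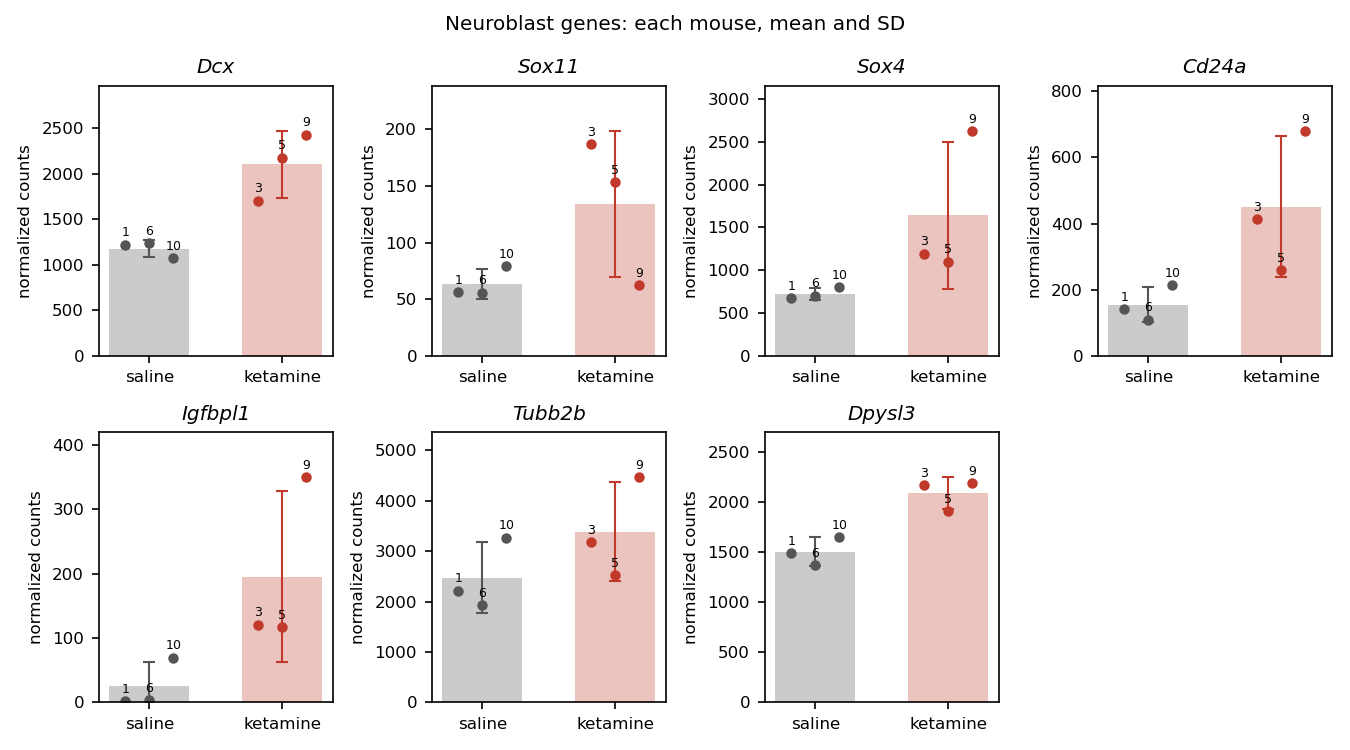
Normalized counts (vertical axes, linear from 0) of the 7 neuroblast genes in saline mice 1, 6 and 10 (grey) and ketamine mice 3, 5 and 9 (red). Points are mice with their numbers, bars are group means and error bars SD (n = 3); the points do not overlap between the groups for Dcx, Sox4, Cd24a, Igfbpl1 and Dpysl3, and do for Sox11 and Tubb2b.

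Dcx encodes doublecortin, a microtubule-binding protein of migrating neurons, and lies on the minus strand of mm9 chromosome X from 140290385 to 140367854 (ENSMUSG00000031285), and other gene positions are also from mm9. It had 1219, 1238 and 1074 normalized counts under saline (mice 1, 6 and 10) and 1703, 2173 and 2425 under ketamine (mice 3, 5 and 9). The saline mice lay close together, and the lowest ketamine mouse was well above them. Means were 1177 ± 89.9 and 2100 ± 366 (SD, n = 3 each), and the log2 fold change was 0.82 (standard error, SE, 0.163, 95% interval 0.44 to 1.21, adjusted p = 0.328 by limma). With each mouse left out in turn it stayed between 0.71 and 0.97. On the recovered reads, edgeR gave an adjusted p of 0.314, and DESeq2 called the gene at 0.84 (standard error 0.191, adjusted p = 0.002). Dcx stayed called by DESeq2 in 4 of the 6 fits that left a mouse out, and not without saline mouse 1 (adjusted p = 0.0825) or saline mouse 6 (0.0596).

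Cd24a encodes a small surface glycoprotein of young neurons and of ependymal cells, and lies on chromosome 10 from 43298975 to 43304068 (ENSMUSG00000047139). Its counts, normalized, were 141, 110 and 213 under saline (mice 1, 6 and 10) and 414, 259.7 and 680 under ketamine (mice 3, 5 and 9). Mouse 9 was the highest, and ketamine mouse 5 stood only a little above saline mouse 10. The log2 fold change was 1.48 (standard error 0.387), and the adjusted p was 0.502 by limma and 0.484 by edgeR. DESeq2 called it at 1.55 (standard error 0.409, adjusted p = 0.0176), but in only 2 of the 6 fits without a mouse, those without saline mouse 10 and without ketamine mouse 5 (adjusted p up to 0.281 in the others). Dcx and Cd24a were the only listed genes that DESeq2 called, 2 of 28, where it called 1.13% of all genes tested (0.899% higher in ketamine).

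Igfbpl1, whose product resembles insulin-like growth factor binding proteins and is found in newborn neurons, split the saline group. It lies on chromosome 4 from 45822340 to 45839795. In saline mice 1 and 6 it was almost undetected, at 1.92 and 3.86 normalized counts, whereas saline mouse 10 had 69.2. Ketamine mice 3, 5 and 9 had 120, 117 and 349 in turn. The split within the saline group was thus wider than the distance from saline mouse 10 to ketamine mice 3 and 5. The log2 fold change was 4.10 (standard error 1.15), and the adjusted p by limma was 0.579. DESeq2 gave 2.96 with all 6 mice and did not call the gene (adjusted p = 0.653). With saline mouse 10 left out, DESeq2 gave 6.09 and called it (adjusted p = 1.61e-10), while limma did not (adjusted p = 0.116).

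Sox4 and Sox11 encode related transcription factors that drive neuronal differentiation of progenitors. Sox4 had 671, 703 and 805 normalized counts under saline (mice 1, 6 and 10) and 1194, 1099 and 2627 under ketamine (mice 3, 5 and 9). Mouse 9 had more than double the counts of the other ketamine mice, and without it the log2 fold change went from 1.06 to 0.66. Its exons share 2616 bases with Gm17419 on the other strand, which averaged 16.6 normalized counts. Sox11 followed another order, with 187 and 153 normalized counts in ketamine mice 3 and 5 but 62.5 in mouse 9, against 56.5, 56.0 and 79.1 in saline mice 1, 6 and 10. Ketamine mouse 9 lay below saline mouse 10, so the groups overlapped, and without mouse 9 the log2 fold change by limma went from 0.94 to 1.41, with an adjusted p of 0.170 by limma. DESeq2 called Sox11 in the fit without mouse 9 (log2 fold change 1.43, adjusted p = 0.000601). The relatives Sox4 and Sox11 thus differed in mouse 9, one being highest there and the other near the saline level.

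Tubb2b and Dpysl3 encode a beta-tubulin and a growth-cone protein that are rich in young neurons but also present in mature ones. Dpysl3 had 1491, 1369 and 1652 normalized counts under saline (mice 1, 6 and 10) and 2168, 1909 and 2188 under ketamine (mice 3, 5 and 9). The groups were separate, by a small margin, and the log2 fold change came to 0.47 (SE 0.131, limma adjusted p = 0.569). Tubb2b overlapped, with 1933 to 3266 normalized counts in saline mice and 2520 to 4462 in ketamine mice. It was the most abundant neuroblast gene per length of exon, at 1287 normalized counts per kilobase in saline mice, against 93.1 for Dcx and 7.69 for Igfbpl1. Its close copies in the tubulin family may share reads with it.

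Among 8 genes of stem cells and progenitors, 7 had a log2 fold change above 0, with a median of 0.25. Every ketamine mouse was above every saline mouse for Sox2, Pax6 and Hes5, and these 3 were also the ones with an unadjusted p under 0.05 by limma. Over all genes tested, 5.69% had that order and 5.81% such a p. None was called by limma, edgeR or DESeq2, and edgeR and DESeq2 also gave 3 genes with an unadjusted p under 0.05. Nes, Hes1, Notch1, Prom1 and Vim overlapped between the groups.

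Nes encodes nestin, an intermediate filament protein of neural stem cells that is also made in blood vessels. It had 345, 393 and 356 normalized counts under saline (mice 1, 6 and 10) and 472, 428 and 327 under ketamine (mice 3, 5 and 9). Ketamine mouse 9 was the lowest of all, and the log2 fold change was 0.15 (95% interval -0.27 to 0.57, adjusted p = 0.999 by limma). Sox2 encodes a transcription factor that maintains stem cells and is also found in astrocytes. Its saline values of 1023, 954 and 1265 normalized counts lay below 1547, 1275 and 1590 in ketamine mice 3, 5 and 9, though saline mouse 10 and ketamine mouse 5 differed by less than 10 counts. The log2 fold change was 0.45 (SE 0.161, limma adjusted p = 0.768).

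Pax6, a transcription factor of radial glia and of olfactory bulb interneurons, had 229.9, 254 and 401 normalized counts in saline mice 1, 6 and 10. Ketamine mice 3, 5 and 9 had 429.7, 495 and 944, so that mouse 9 again stood highest. The log2 fold change was 1.03 (SE 0.341, limma adjusted p = 0.695). Its exons share 5542 bases with Elp4 on the other strand, which averaged 601 normalized counts, and the strand setting of the counting is not given in the sources used here.

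Within the Notch pathway, the receptor Notch1 and the target genes Hes1 and Hes5 had different patterns over the mice. Hes5, a repressor that keeps progenitors undifferentiated, had 400.4, 472 and 304 normalized counts under saline (mice 1, 6 and 10) and 564, 635 and 791 under ketamine (mice 3, 5 and 9). This is the reverse of most listed genes within the saline group, since saline mouse 10 was the lowest. Its log2 fold change was 0.77 (standard error 0.211), and the adjusted p was 0.569 by limma and 0.0998 by DESeq2. Hes1 overlapped, with 241 to 289.9 normalized counts under saline and 202 to 333 under ketamine. Notch1 had 552 normalized counts in ketamine mouse 9, below every other mouse, and 1046 and 1095 in ketamine mice 3 and 5. Vim, an intermediate filament gene of glia and vessels, had 2130 normalized counts in mouse 9 and 861 to 1200 in the other five. Prom1, the gene of the surface protein prominin, had between 476 and 669.9 normalized counts and was highest in saline mouse 10. Exons of Hes5, Notch1 and Prom1 share 433, 1068 and 188 bases with genes on the other strand.

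Genes of the cell cycle fell into sets with different patterns. The set for entry into the cycle and DNA replication (8 genes) had 5 genes above 0 and 3 below, and its median log2 fold change was 0.03. Its groups overlapped for each gene, and limma, edgeR and DESeq2 gave no p under 0.05 before adjustment. The set for G2 and mitosis had a median of 0.69 over the 5 genes that passed the filter, all above 0, and 1 gene, Cdk1, had an unadjusted p under 0.05 by limma. Saline mouse 10 was the highest saline mouse for 4 of these 5 genes.

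Ccnd2 encodes cyclin D2, which drives cells out of G1 and is also found in neurons. It had 2204, 2063 and 1719 normalized counts under saline (mice 1, 6 and 10) and 1810, 2886 and 1628 under ketamine (mice 3, 5 and 9), with no separation of the groups (log2 fold change 0.04, 95% interval -0.50 to 0.58). Mcm2, Mcm3, Mcm5 and Mcm6 encode subunits of the helicase that unwinds DNA at replication. Their log2 fold changes were -0.06, 0.25, -0.13 and 0.08, and the highest of the 6 mice was between 1.26-fold (Mcm5) and 2.02-fold (Mcm3) above the lowest. Mcm5 gave the narrowest interval of the set, -0.51 to 0.25. Pcna, the sliding clamp of DNA polymerase, lay between 1288 and 1327 normalized counts in the saline mice. Ketamine mice 3 and 5 were below this range, at 1098 and 1115, and mouse 9 was above it, at 1891. Rrm2 and Tyms, which encode enzymes of deoxynucleotide synthesis, had log2 fold changes of 0.51 and -0.12 with overlapping groups, and Rrm2 was highest in ketamine mice 3 and 5, at 70.5 and 64.0 normalized counts.

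The mitotic genes were scarce in this tissue, at 0.746 to 16.9 normalized counts per kilobase of exon in saline mice. Mki67 encodes Ki-67, a protein of dividing cells and their usual marker, and lies on chromosome 7 from 142881471 to 142908062. It had 26.8, 21.2 and 72.5 normalized counts under saline (mice 1, 6 and 10) and 87.1, 87.5 and 23.6 under ketamine (mice 3, 5 and 9). Saline mouse 10 and ketamine mice 3 and 5 formed the high set, and ketamine mouse 9 was at the level of saline mice 1 and 6. The log2 fold change was 0.69 with a standard error of 0.642 (adjusted p = 0.999 by limma).

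Top2a, the topoisomerase that separates DNA strands in dividing cells, lies on chromosome 11 from 98854257 to 98885503. It had 20.1, 15.4 and 96.6 normalized counts under saline (mice 1, 6 and 10) and 107, 96.0 and 65.3 under ketamine (mice 3, 5 and 9). The value of saline mouse 10 was inside the ketamine range, while the other saline mice were far below it. The log2 fold change was 1.45 (SE 0.652, limma adjusted p = 0.887), and without saline mouse 10 it was 2.25 by limma and 2.34 by DESeq2, which then called it (adjusted p = 6.93e-05).

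Cdk1, the kinase that starts mitosis, had 2.87, 6.76 and 13.2 normalized counts under saline (mice 1, 6 and 10) and 23.5, 17.9 and 16.3 under ketamine (mice 3, 5 and 9). The groups were separate, at counts so low that few reads decide the order (log2 fold change 1.41, standard error 0.540, adjusted p = 0.797 by limma). Ccna2, the gene of cyclin A2, had 29.7, 74.3 and 73.6 normalized counts under saline (mice 1, 6 and 10) and 74.4, 86.6 and 75.2 under ketamine (mice 3, 5 and 9). Only saline mouse 1 was clearly lower, and the groups were separated by less than 1 normalized count. Ccna2 shares 512 exon bases with Exosc9 on the other strand, a gene with a mean of 1117 normalized counts. Birc5, the gene of survivin, lay between 15.3 and 30.8 normalized counts, with saline mouse 10 highest.

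Aurkb and Bub1, a mitotic kinase and a checkpoint kinase, were below the filter. Bub1 had 0.96, 0 and 8.79 normalized counts under saline (mice 1, 6 and 10) and 18.6, 16.0 and 9.06 under ketamine (mice 3, 5 and 9). Aurkb had 5.75, 2.90 and 8.79 normalized counts under saline (mice 1, 6 and 10) and 16.6, 14.1 and 5.44 under ketamine (mice 3, 5 and 9). Both were highest in ketamine mice 3 and 5 and had saline mouse 10 as the highest saline mouse, as Mki67 had. Ccnb1, the gene of cyclin B1, was matched by identifier alone (ENSMUSG00000041431), and the table gives that row the symbol Gm5593. The row had 20.1, 26.1 and 26.4 normalized counts under saline (mice 1, 6 and 10) and 30.3, 32.9 and 42.6 under ketamine (mice 3, 5 and 9) (log2 fold change 0.52, adjusted p = 0.987 by limma). It was highest in mouse 9, unlike Mki67, and processed copies of the gene may share its reads.

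**Figure D2:**
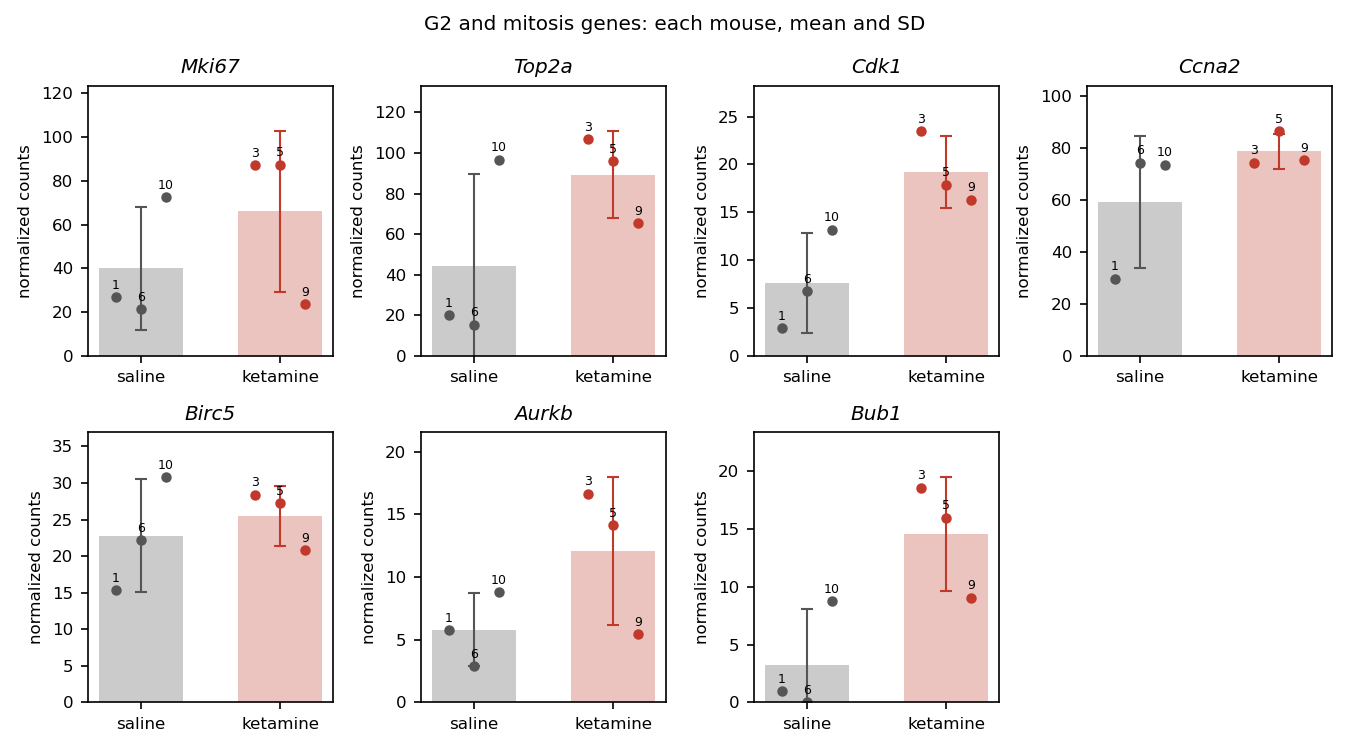
Normalized counts (vertical axes, linear from 0) of the 7 G2 and mitosis genes found by symbol, in saline mice (grey) and ketamine mice (red). Points are mice with their numbers, bars are means and error bars SD (n = 3); for Mki67, Top2a, Aurkb and Bub1, saline mouse 10 is the highest saline mouse and ketamine mice 3 and 5 are the highest or nearly so.

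Promoters of mitotic genes are known to carry repeated CCAAT boxes and, near the start, the cell cycle genes homology region (CHR), whereas E2F sites are typical of replication genes. Of the 31 genes, 23 had a promoter in the RefSeq table (build GRCm38.p6), and the 250 bases before each start were searched on both strands. Dcx, Pax6 and Prom1 had more than 1 start, and a listed gene counted if any of its promoters held the motif. The shares of all promoters count each promoter by itself. A CCAAT box (CCAAT) was found for 5 of 6 mitotic genes with a promoter, beside 33.8% of all 32851 promoters, and a CHR (TTTGAA) for 3 of 6, beside 16.0%. The CCAAT box was as frequent in the other sets, with 6 of 7 replication genes, 3 of 3 neuroblast genes and 5 of 7 progenitor genes, and the CHR was found for 1, 1 and 0 of them. The E2F motif (TTTNNCGC) was found for 2 of 7 replication genes, 1 of 6 mitotic, 1 of 7 progenitor and 0 of 3 neuroblast genes, beside 4.28% of all promoters. The mitotic genes with a promoter and the widest spread between mice are shown first, with CCAAT and CHR motifs of either strand in capitals, then Mcm6, the replication gene with the most E2F matches, with those in capitals. In Mcm6 a pair of E2F matches on opposite strands overlap. The regions are chr11:99024190-99024439 (Top2a), chr7:135716380-135716629 (Mki67), chr10:69352913-69353162 (Cdk1), chr2:127831860-127832109 (Bub1) and chr1:128359706-128359955 (Mcm6), each on the minus strand, and are written from 5′ to 3′ of the gene.
Top2a: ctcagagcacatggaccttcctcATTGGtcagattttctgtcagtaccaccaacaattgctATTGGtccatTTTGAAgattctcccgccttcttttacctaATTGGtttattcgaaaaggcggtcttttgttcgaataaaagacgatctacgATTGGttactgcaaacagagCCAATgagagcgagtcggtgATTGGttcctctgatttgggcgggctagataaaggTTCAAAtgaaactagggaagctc
Mki67: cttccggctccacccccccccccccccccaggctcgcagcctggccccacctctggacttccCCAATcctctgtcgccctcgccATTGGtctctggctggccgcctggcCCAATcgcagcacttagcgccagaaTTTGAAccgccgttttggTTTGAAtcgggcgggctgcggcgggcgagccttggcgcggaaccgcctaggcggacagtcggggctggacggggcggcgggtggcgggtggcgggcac
Cdk1: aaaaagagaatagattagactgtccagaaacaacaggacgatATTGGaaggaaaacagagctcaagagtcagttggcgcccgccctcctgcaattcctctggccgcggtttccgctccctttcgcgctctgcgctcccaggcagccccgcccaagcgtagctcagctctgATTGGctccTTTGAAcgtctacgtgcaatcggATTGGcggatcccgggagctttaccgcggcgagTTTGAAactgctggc
Bub1: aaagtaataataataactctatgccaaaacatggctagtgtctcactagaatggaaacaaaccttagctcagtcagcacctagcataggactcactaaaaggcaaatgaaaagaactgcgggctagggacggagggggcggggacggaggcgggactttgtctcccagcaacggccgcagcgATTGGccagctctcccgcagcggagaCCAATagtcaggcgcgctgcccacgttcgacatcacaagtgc
Mcm6: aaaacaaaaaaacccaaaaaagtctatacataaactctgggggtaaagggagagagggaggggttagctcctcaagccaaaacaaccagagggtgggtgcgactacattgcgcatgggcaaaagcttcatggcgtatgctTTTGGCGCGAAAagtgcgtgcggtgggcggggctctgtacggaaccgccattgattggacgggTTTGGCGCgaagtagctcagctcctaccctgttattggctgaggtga
Top2a held 6 CCAAT boxes and 2 CHR matches, Mki67 and Cdk1 each 3 and 2, and Bub1 2 CCAAT boxes and no CHR match. Mcm6 held 3 E2F matches. These are matches of letters and no measure of binding.

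Across the 28 tested genes, 24 had a log2 fold change above 0, with a median of 0.45. Every ketamine mouse was above every saline mouse for 10 genes (5.69% of all genes tested), and no listed gene had the reverse order (4.66%). Before adjustment, 9 genes had a p under 0.05 by limma, 9 by DESeq2 and 10 by edgeR, each of them higher in ketamine. Over all genes tested the shares were 5.81%, 6.54% and 6.24% in either direction, and 3.44%, 3.94% and 3.99% for genes higher in ketamine. Within the saline group, mouse 10 was the highest for 21 of the 28 genes, where it was the highest for 39.3% of all genes tested. Ketamine mouse 9 was the highest of the 6 for 6 of 7 neuroblast genes, 5 of 8 progenitor genes, 1 of 8 replication genes and 0 of 5 mitotic genes, against 29.4% of all genes. Of the neuroblast genes, Sox11 was highest in ketamine mouse 3, as were Top2a and Cdk1 among the mitotic genes.

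**Figure D3:**
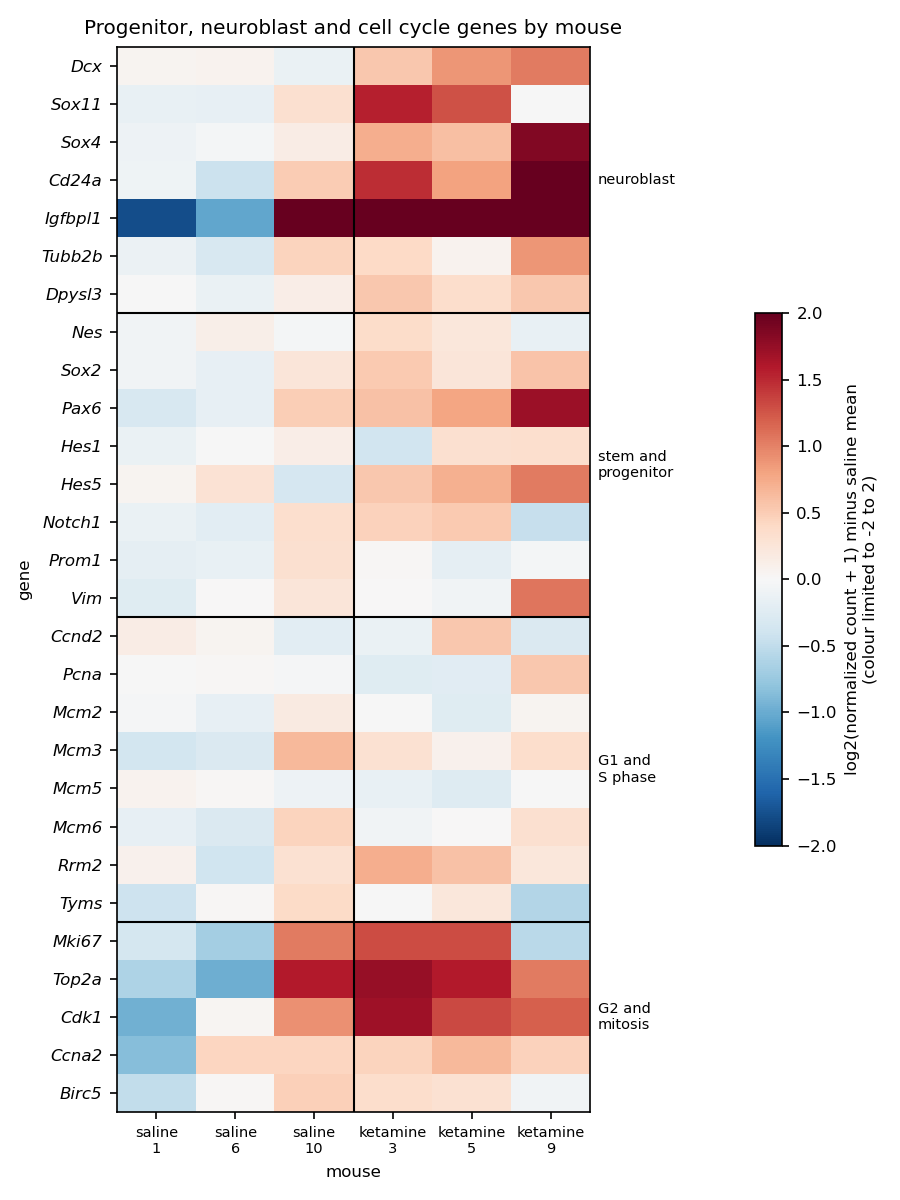
Heat map of the 28 tested genes (rows, by role) in the 6 mice (columns), coloured by log2(normalized count + 1) minus the mean of the saline mice with a limited colour range. Neuroblast genes are red in the 3 ketamine mice apart from Sox11 in mouse 9 and Tubb2b in mouse 5, which are near the saline mean, while Mki67 and Top2a are red in saline mouse 10 as well.

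Leaving out saline mouse 10 and ketamine mouse 9, a choice made with earlier results of these data known, left 2 mice a group. limma then called 8 of the 28 genes, where it called 3.64% of all genes tested. They were Igfbpl1 (log2 fold change 4.99, adjusted p = 0.00783), Top2a (2.46, 0.0132), Sox11 (1.57, 0.0195), Sox4 (0.74, 0.0247), Mki67 (1.83, 0.0248), Pax6 (0.93, 0.0271), Notch1 (0.66, 0.0285) and Cd24a (1.39, 0.0403), each higher in ketamine mice 3 and 5. These are the mice in which striatal markers were high, so this contrast sets them against saline mice 1 and 6 with that difference included, and the part of those markers in it was not tested. Without only saline mouse 10, DESeq2 called 6 of the 28 genes (Dcx, Cd24a, Igfbpl1, Dpysl3, Pax6 and Top2a), where it called 3.11% of all genes.

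Other genes of the same pathways were taken from further lists. Of 18 other neuroblast genes, 13 were above 0, 10 were higher in every ketamine mouse (5.69% of all genes tested), and the median log2 fold change was 0.62. The 5 genes below 0 were Stmn1, Stmn2, Elavl4, Dclk1 and Neurod1 (log2 fold changes -0.06, -0.21, -0.19, -0.11 and -0.43). Nrep and Tubb3 had 0.0045 and 0.17. limma called none and DESeq2 called 7, all higher, where it called 0.899% of all genes as higher. Those 7 were Prokr2, Dlx1, Dlx2, Dlx5, Sp8, Sp9 and Pbx3. The smallest p-values were those of Prokr2, the receptor of a cue that attracts neuroblasts to the olfactory bulb, and of Dlx5 and Sp9, transcription factors of GABAergic neuroblasts. Prokr2 had 27.8, 28.95 and 38.4 normalized counts under saline (mice 1, 6 and 10) and 191, 169 and 257 under ketamine (mice 3, 5 and 9) (log2 fold change 2.65, adjusted p = 0.0922 by limma, 2.15e-13 by DESeq2). Here saline mouse 10 stayed near the other saline mice, unlike for Igfbpl1. Dlx5 had 74.7, 75.3 and 84.6 normalized counts in the saline mice and 301, 225 and 471 in the ketamine mice, in the same order of mice (log2 fold change 2.01, adjusted p = 0.173 by limma). Sp9 had 98.4 to 167 normalized counts in saline mice and 341 to 978 in ketamine mice (log2 fold change 2.17, adjusted p = 0.283 by limma). Dlx and Sp genes also serve mature interneurons of the olfactory bulb and neurons of the striatum.

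Of 17 other tested genes of Notch signalling and progenitors, 13 were above 0, with a median of 0.36, and DESeq2 called 1 (1.13% of all genes tested), the Notch ligand gene Dll1. Dll1 had 115, 126 and 150 normalized counts under saline (mice 1, 6 and 10) and 254, 241 and 341 under ketamine (mice 3, 5 and 9) (log2 fold change 1.08, adjusted p = 0.301 by limma, 0.0025 by DESeq2). Sox3 and Notch2 had the next smallest p-values, with log2 fold changes of 1.09 and 0.48 (adjusted p = 0.776 and 0.814 by limma). No gene was called among 25 other replication genes (median 0.11) or 25 other mitosis genes (median 0.21) by limma, edgeR or DESeq2. Every ketamine mouse was above every saline mouse for 5 of these replication genes and 0 of these mitosis genes (5.69% of all genes tested). The reverse order was found for 0 replication genes and 1 mitosis gene, Cenpa (4.66% of all genes tested). At an unadjusted p under 0.05 there were 2 replication genes by limma, 1 by edgeR and 1 by DESeq2, and 0 mitosis genes by each tool. In the replication list, Mcm7, Gins2 and Lig1 had the smallest p-values (log2 fold changes 0.50, 0.86 and 0.31), and in the mitosis list Hmgb2, Cenpa and Ube2c (0.81, -0.50 and 1.03). Saline mouse 10 was the highest saline mouse for 20 of those 25 mitosis genes, as for the mitotic genes above.

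Markers of other cells were set beside the levels of each set. On the mean log2 scale relative to saline, neuroblast genes stood at -0.31, -0.29 and 0.61 under saline (mice 1, 6 and 10) and at 1.26, 1.08 and 1.66 under ketamine (mice 3, 5 and 9). Markers of olfactory bulb interneurons, into which neuroblasts mature, stood at -0.14, -0.24 and 0.38, and at 1.47, 0.73 and 2.49. Both means had saline mouse 10 as the highest saline mouse. In both, ketamine mouse 9 came first, mouse 3 next and mouse 5 last. The olfactory bulb projection neuron markers kept that order as well. Single genes differed. Saline mouse 10 was the highest saline mouse for 3 of the 7 interneuron markers. Its gap was widest for Th, at 611 normalized counts against 39.3 and 32.8 in saline mice 1 and 6. Every ketamine mouse was above every saline mouse for 4 of the 7 (5.69% of all genes tested). Etv1 had the reverse order, with 1492 to 1776 in ketamine mice against 1853 to 2658 in saline mice. Among the neuroblast genes, saline mouse 10 was the highest saline mouse for 6 of 7. Its gap was by far the widest for Igfbpl1, at 69.2 normalized counts against 1.92 and 3.86, so this gene weighs most in its mean. Dcx was lowest in that mouse. The part of olfactory bulb tissue in the level of the neuroblast genes was not tested.

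The mitotic genes stood at -0.66, -0.23 and 0.89 under saline (mice 1, 6 and 10) and at 1.11, 1.04 and 0.42 under ketamine (mice 3, 5 and 9). Ependymal markers, of the cells that line the ventricles beside the progenitors, stood at -0.75, -0.96 and 1.71, and at 1.25, -0.70 and 0.19. Saline mouse 10 and ketamine mouse 3 were high in both lists, and ketamine mouse 5 was high in the mitotic list and at the level of saline mice 1 and 6 in the ependymal mean. Single ependymal genes of ketamine mouse 5 differed. Ccdc153 and Tmem212 were both at 0 there, near saline mice 1 and 6 (0.96 and 1.93 normalized counts for Ccdc153, 0 and 0 for Tmem212). Saline mouse 10 had 98.8 and 42.8 of these. Foxj1 had 113 in ketamine mouse 5, against 48.9 and 48.3 in saline mice 1 and 6 and 337 in saline mouse 10. Oligodendrocyte precursor markers (8 genes) stood at -0.25, -0.32 and 0.57, and at 0.37, 0.17 and 0.01. Saline mouse 10 and ketamine mice 3 and 5 were thus the highest here as for the mitotic genes. The range was narrower, from -0.32 to 0.57 against -0.66 to 1.11. In saline mouse 10, Sox10, Olig1 and Olig2 stood out most, at 1901, 5150 and 1154 normalized counts. The other saline mice had at most 590, 1942 and 521. Pdgfra and Cspg4 stood out less there, at 1765 and 631 against at most 1531 and 576. Both of these genes, and Gpr17 and Neu4, also had saline mouse 10 and ketamine mice 3 and 5 as the highest mice. The other markers of the list did not. For Olig1, Olig2, Sox10 and C1ql1, ketamine mouse 9 was above ketamine mouse 5, and C1ql1 was highest of all in mouse 9.

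Astrocyte markers (8 genes) lay between -0.27 and 0.41, microglia markers (6 genes) between -0.15 and 0.10, and endothelial and pericyte markers (8 genes) between -0.20 and 0.10. Progenitor genes stood at -0.14, -0.04 and 0.17 under saline (mice 1, 6 and 10) and at 0.27, 0.32 and 0.51 under ketamine (mice 3, 5 and 9). The mean of the astrocyte markers did not have that order. Of the 8 astrocyte markers, 1 had every ketamine mouse above every saline mouse (5.69% of all genes tested). It was Slc1a3, at 18797 to 19559 normalized counts against 14556 to 16449. The part of astrocytes in the level of the progenitor genes was not tested. The replication genes stayed between -0.12 and 0.20. The part of ependymal, precursor and striatal cells in these levels was not tested.

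**Figure D4:**
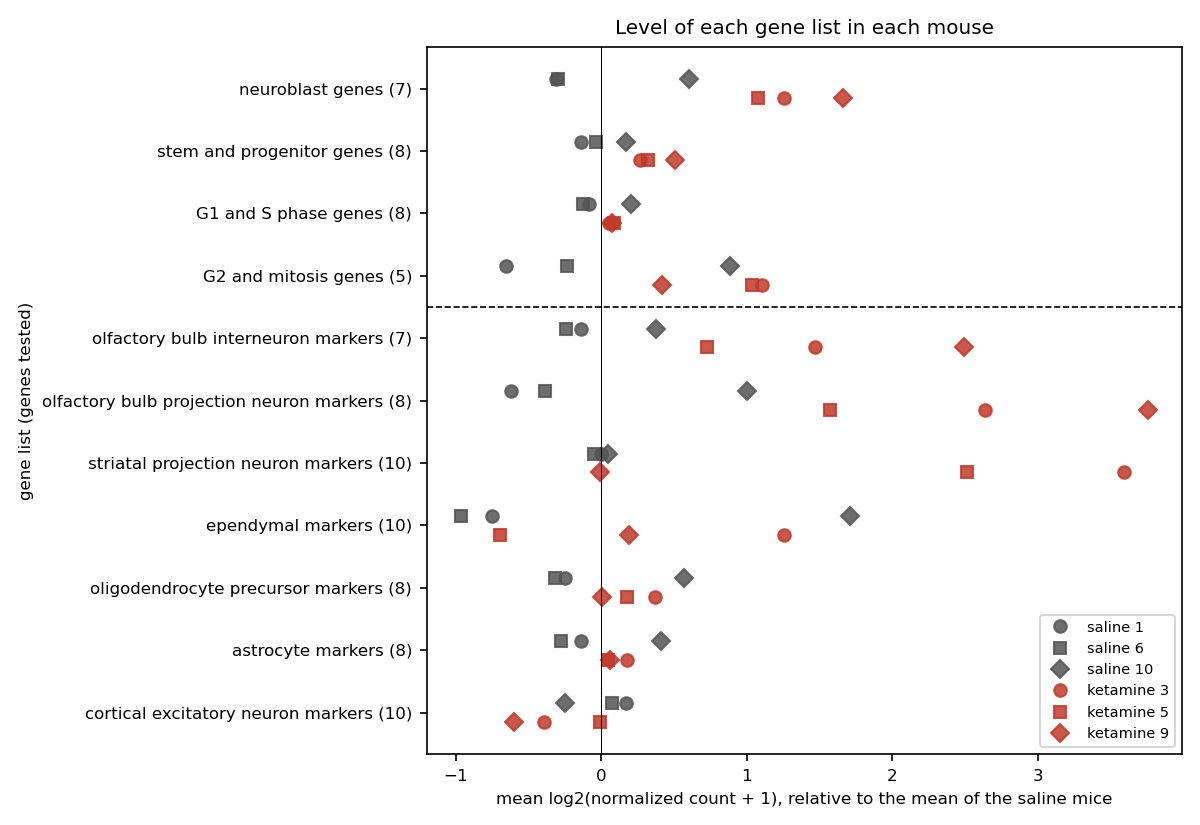
Mean log2(normalized count + 1) of each gene list minus that of the saline group (horizontal axis), with 1 symbol for each saline mouse (grey) and each ketamine mouse (red) and the number of genes tested in brackets. Neuroblast genes (top) lie from -0.31 to 0.61 in saline mice and from 1.08 to 1.66 in ketamine mice, while mitotic genes of saline mouse 10 (0.89) lie among those of the ketamine mice.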

How the data were processed

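RNA Seq of PLc tissue from 3 saline and 3 ketamine mice was analysed, with groups and mouse numbers from the sample labels. The groups share no mouse number, which leaves nothing to pair. Reads were aligned by the authors with TopHat2 2.0.11 (genome build mm9), and HTSeq and DESeq2 gave the gene values. What they deposited is a normalized signal, each gene's count over the library's size factor. All values (100%) in a library were multiples of 1 step (0.906 to 1.10 normalized counts per read, within 0.02 of a step and rounding), which gave back the reads. The annotation, strand setting and filters are not given in the sources used here.

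The listed genes, the other lists and the mice left out were chosen with earlier results of these data known. Log2(normalized count + 1) was fitted with limma 3.58.1 (R 4.3.3, trended prior variance), leaving out genes averaging under 10 normalized counts. edgeR 4.0.16 and DESeq2 1.42.0 were run on the recovered reads. Other settings were pseudocounts of 0.1 and 5, no filter, a filter of 100, other scalings, no trend, and mice left out. The p-values set the difference between the groups against the spread between these mice. Each tool estimated that spread for a gene with help from the other genes. With 3 mice a group, the smallest p of an exact permutation test is 0.1. On simulated reads limma and edgeR recovered large changes but missed moderate ones. DESeq2 recovered part of the moderate ones. False calls made up a larger share of the DESeq2 calls than the adjusted p threshold allows, for large and moderate changes alike. A missing limma call thus does not show that a gene was unchanged. A DESeq2 call alone does not show that a gene changed. Positions and exon lengths are from GENCODE M1 on mm9, and promoters from RefSeq on GRCm38.p6.

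Values in every mouse are given for the first gene of each role, for genes with an unadjusted limma p under 0.05, called by DESeq2 or edgeR, or not overlapping between groups, and for some others chosen after their values were seen (Sox11, Top2a, Aurkb, Bub1 and Ccnb1). In each further pathway list, the 3 genes with the smallest p are named. Older symbols were matched through RefSeq synonyms. No other column of the table was used.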

Additional observations from a re-analysis of the deposited data

How the results depend on the processing

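limma called 0 of 16127 genes (937 at an unadjusted p under 0.05, 1007 by edgeR) and 0 of the 28 listed genes, and both counts stayed at 0 with other pseudocounts, filters, scalings, no trend and edgeR. DESeq2 called 182 genes and 2 listed genes, and limma without saline mouse 10 and ketamine mouse 9 called 587 and 8. With 1 mouse left out, limma called between 0 and 1 genes (1 without ketamine mouse 5 and 1 without ketamine mouse 9) and 0 listed genes throughout. DESeq2 with 1 mouse left out, added after seeing the data, called between 0 and 6 listed genes (6 without saline mouse 10, 3 without ketamine mouse 5 or 9, 1 without ketamine mouse 3, and 0 without saline mouse 1 or 6). Over all genes these fits called 501 without saline mouse 10, 274 without ketamine mouse 5, 437 without ketamine mouse 9, 103 without ketamine mouse 3, and 83 and 93 without saline mouse 1 and 6. The median log2 fold change of the progenitor genes lay between 0.16 and 0.40 with a mouse left out, and that of the mitotic genes between 0.45 and 1.31, and at 1.83 without saline mouse 10 and ketamine mouse 9. No paired analysis was possible because the groups share no mouse number.

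Direction changed for 10 genes whose 95% intervals include 0. With a mouse left out, the log2 fold change ranged from -0.030 to 0.33 for Hes1, -0.0049 to 0.49 for Notch1, -0.15 to 0.10 for Prom1, -0.030 to 0.54 for Vim, -0.21 to 0.20 for Ccnd2, -0.24 to 0.15 for Pcna, -0.14 to 0.028 for Mcm2, -0.061 to 0.30 for Mcm6, -0.046 to 0.43 for Birc5 and -0.33 to 0.11 for Tyms. Without saline mouse 10 and ketamine mouse 9 it was 0.09 for Prom1, -0.25 for Pcna, 0.30 for Tyms, 0.66 for Notch1 and 0.57 for Birc5. The cause was not tested. The depth limits Cdk1, Bub1 and Aurkb most, whose values rest on few reads.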
